A study of Rattus norvegicus with 16 samples.

Results

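Activity-dependent immediate early genes were measured in the hippocampus of 16 adult male Sprague-Dawley rats, 24 h after traumatic brain injury (TBI) or its equivalent. The group was taken by name: Fos, Fosb, Fosl2, Junb, Egr1, Egr2, Egr3, Arc, Nr4a1 and Npas4. Among the 30367 probes of the array, 12 carried 9 of these 10 names, and no probe named Junb was found, so Junb was not analysed here. The 12 probes were compared across 3 Naive, 2 Sham, 3 TBI, 3 TBI+PMI, 3 TBI+JM6 and 2 TBI+E33 rats, 1 array per rat. Naive rats had neither injury nor treatment, and Sham rats were anesthetized with isoflurane and prepared for surgery but not injured. TBI rats received a severe parasagittal fluid percussion injury, in which a pulse of fluid strikes the exposed dura. The drug groups had the same injury and then PMI-006 or JM6 by oral gavage, or estradiol (E33). The estradiol was given under the skin according to the labels and into the peritoneum according to the methods. All rats were anesthetized with isoflurane again before the tissue was taken, per the methods. The whole hippocampus was used, so the arrays mix neurons, glia, vessels and blood, and fewer cells of a type cannot be told apart from less RNA per cell.

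Immediate early genes are transcribed within minutes of strong synaptic input or growth factor signalling, without the need for new protein. Calcium entry and kinase cascades act on factors that already sit at their promoters, among them CREB, which binds the cyclic AMP response element (CRE), and serum response factor, which binds the CArG box. In the hippocampus these genes mark recently active neurons, for example after exploration or a seizure, and most of their transcripts decay within hours. Most of the group encode transcription factors: Fos, Fosb, Fosl2 and Junb form the AP-1 complex, Egr1, Egr2 and Egr3 are zinc finger factors, Nr4a1 is an orphan nuclear receptor and Npas4 is a neuronal bHLH-PAS factor. Arc instead encodes a synaptic protein that promotes removal of AMPA receptors from the membrane.

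The promoters of Egr2 and Nr4a1 are shown. Egr2 was above background in 2 rats alone, and its window also holds a CArG box. Nr4a1 had the most CRE cores among the 7 genes of the group with a promoter in the reference. Both runs are the 250 bases before the annotated start in RefSeq's GRCr8 assembly, read 5′ to 3′ on the gene's strand. Capitals mark the CArG box and the core of the CRE, TGACG or its reverse complement CGTCA.
Egr2, chr20:21054442-21054691, minus strand: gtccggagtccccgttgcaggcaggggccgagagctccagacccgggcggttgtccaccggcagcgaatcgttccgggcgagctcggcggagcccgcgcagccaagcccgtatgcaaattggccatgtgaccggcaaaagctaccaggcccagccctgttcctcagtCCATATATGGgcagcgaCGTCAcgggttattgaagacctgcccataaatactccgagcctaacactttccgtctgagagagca
Nr4a1, chr7:134259888-134260137, plus strand: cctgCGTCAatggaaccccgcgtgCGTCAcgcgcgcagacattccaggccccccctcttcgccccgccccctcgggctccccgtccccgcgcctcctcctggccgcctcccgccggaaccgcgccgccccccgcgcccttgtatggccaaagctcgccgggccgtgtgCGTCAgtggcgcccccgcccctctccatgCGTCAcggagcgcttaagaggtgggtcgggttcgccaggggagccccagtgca

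The reference table held promoters for 7 of the 10 genes, without Fos, Egr3 and Arc. On both strands of the 250 upstream bases, the CRE core TGACG was found in 4 of these 7 (Nr4a1 with 4 matches, Egr1 with 2, Junb and Egr2 with 1 each) and in 18.2% of all 33469 promoters. The full CRE, TGACGTCA, which contains the core, was in none of the 7 and in 1.59% of all promoters. A CArG box lay in the promoters of Egr1, with 2 matches, and Egr2, and in 1.5% of all promoters. The EGR site GCGNGGGCG matched in Fosl2 and Nr4a1 (4.29% of all), and the AP-1 site TGANTCA in none of the 7 (6.34% of all). A match describes the letters of this window only.

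Levels are given as log2 of a probe's signal relative to a reference point of its own array, the 75th percentile among detected probes, so that 0 is that percentile and 1 unit is a 2-fold difference. Levels of different probes are not compared with each other. A probe entered the tests if some group had it well above background in all of its rats, which left 22827 probes of the array and 10 probes of 8 of the genes. The only Egr2 probe and the dimmer of the Egr3 probes did not enter. The brightest probe stands for a gene. In the coordinates of the rn4 assembly given with the array, it lies at chr6:109561941-109562000 for Fos, chr1:78668672-78668731 for Fosb, chr18:27347173-27347232 for Egr1, chr20:21883940-21883999 for Egr2 and chr15:50479803-50479862 for Egr3. The probes of Arc, Nr4a1 and Npas4 lie at chr7:112772025-112772084, chr7:140020442-140020501 and chr1:207598453-207598512, and the Fosl2 probes had no position. Whether a probe lies in a coding or an untranslated exon was not annotated.

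The arrays were scanned in 2 sessions of 8 arrays: the Naive, Sham and TBI arrays, with 16282 to 18245 probes well above background, and the drug arrays, with 20259 to 24984. The difference between a drug group and TBI and the difference between the sessions cannot be told apart. Neuronal markers (9 of 9 tested; summed linear level 16.8 to 41.9) and the astrocyte, oligodendrocyte and microglial lists were above background on every array, apart from 1 neuronal marker on some of them. Choroid plexus markers varied most, with a summed level of 0.185 to 150 (4 of 6 markers tested).

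In 2 of the drug-treated rats the immediate early genes stood far above the rest of their own group. In TBI+JM6 rat 3, all 9 measured genes lay more than 1 log2 unit above both other TBI+JM6 rats, against 4.5% of all tested probes. In TBI+PMI rat 1, 7 of 9 genes did, all but Fosb and Egr3, against 2.81% of tested probes. Naive rat 1, TBI rat 2 and TBI+E33 rat 2 had 2 such genes each (1.51%, 6.7% and 2.83% of tested probes), Sham rat 2 had 1 (7.92%), and the other 10 rats had 0, where the share of tested probes ran from 0.305% to 4.53%. These 2 rats were singled out after their values were seen, so the gaps below are descriptions without a test.

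**Figure D1:**
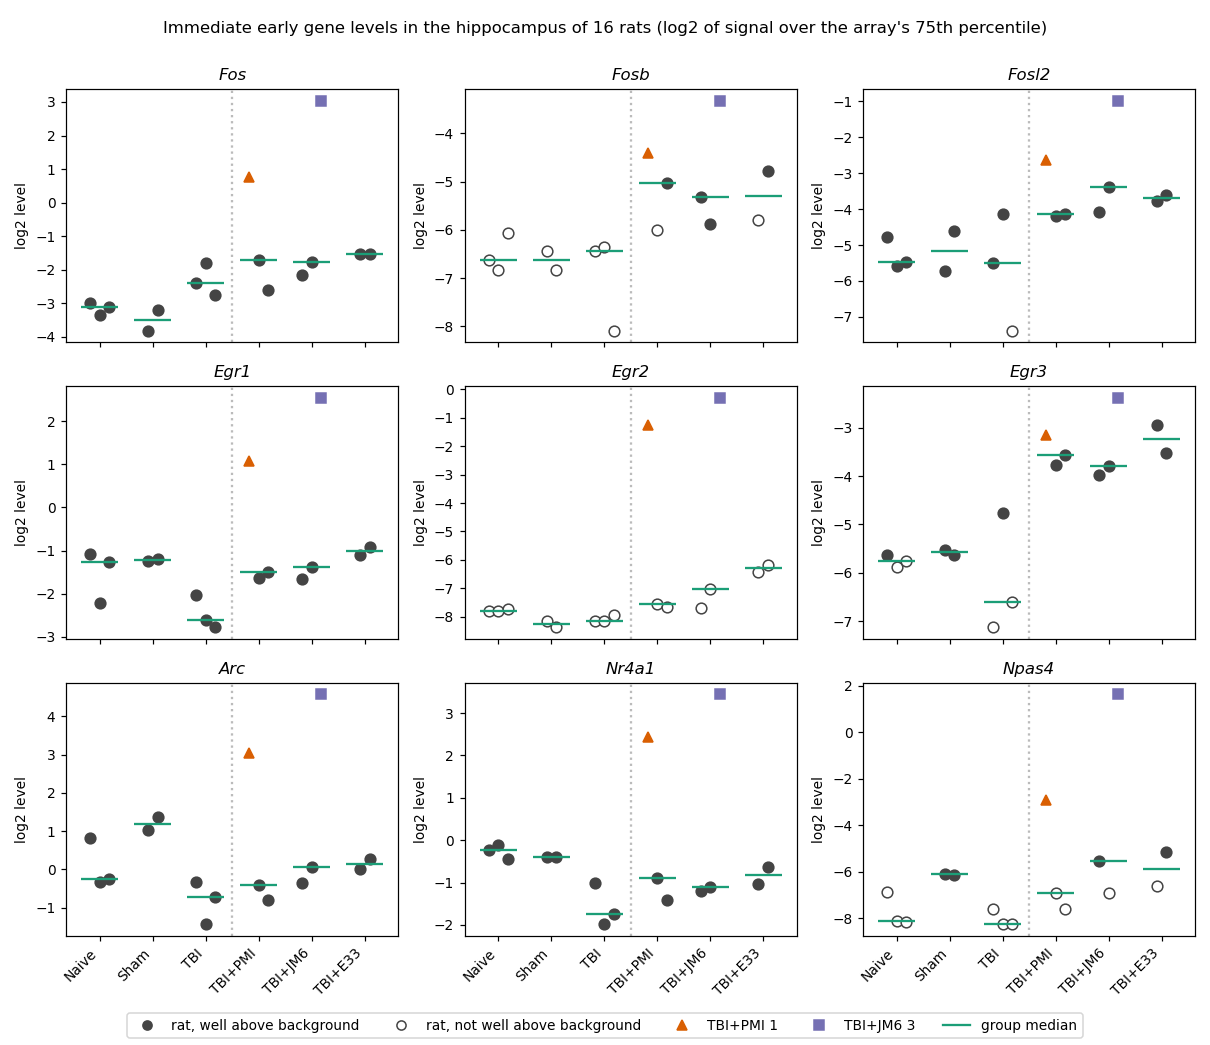
Level of each immediate early gene (brightest probe, log2 of signal over the array's 75th percentile, y axis) in each rat by group (x axis), with group medians as green lines. Open symbols were not well above background, the dotted line separates the scanning sessions, and TBI+JM6 rat 3 (square) and TBI+PMI rat 1 (triangle) lie above the other rats of their groups for 9 and 9 of the 9 genes.

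Fos, the founding AP-1 subunit, had log2 levels of -2.99, -3.35 and -3.12 in Naive, -3.81 and -3.19 in Sham, and -2.39, -1.81 and -2.75 in TBI rats. In the drug groups it was at 0.76, -1.71 and -2.60 with PMI, -2.14, -1.78 and 3.03 with JM6, and -1.52 and -1.54 with E33. Every TBI rat lay above every Naive and Sham rat, and the highest values of all belonged to TBI+JM6 rat 3 and TBI+PMI rat 1. They were 31.8-fold and 7.54-fold above the mean of the other 2 rats of their groups. By group median the order was TBI+E33, TBI+PMI, TBI+JM6, TBI, Naive and Sham, and only TBI and Naive did not overlap among neighbours.

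Fosb, which encodes another AP-1 subunit and its stable short form, was not well above background in any of the 8 Naive, Sham and TBI rats, where its measured log2 level ran from -8.09 to -6.06. It was at -4.41, -6.01 and -5.03 in TBI+PMI, -5.32, -5.88 and -3.33 in TBI+JM6, and -5.80 and -4.78 in TBI+E33 rats. TBI+JM6 rat 3 was 4.82-fold above the mean of its group mates. For Fosl2, which encodes the AP-1 subunit Fra-2, the brightest probe ran from -7.38 to -4.14 over the 8 undrugged rats, from -4.20 to -3.38 over 6 of the drug-treated rats, and stood at -2.63 in TBI+PMI rat 1 and -0.99 in TBI+JM6 rat 3. Its second probe gave the same ranking at the top, with -2.84 and -1.13. These rats were 2.90-fold and 6.65-fold above their group mates with the brightest probe.

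Egr1, a zinc finger factor widely used to map neuronal activity, was at -1.09, -2.21 and -1.26 in Naive, -1.24 and -1.19 in Sham, and -2.03, -2.60 and -2.78 in TBI rats. The drug-treated rats had 1.08, -1.64 and -1.50 with PMI, -1.66, -1.38 and 2.54 with JM6, and -1.11 and -0.92 with E33. All TBI rats were below both Sham rats and below every drug-treated rat, while the same 2 rats as before stood highest, 6.31-fold (TBI+PMI 1) and 16.6-fold (TBI+JM6 3) above their group mates. Over all tested probes, 24.3% were lower in TBI than in Sham without overlap. Against TBI, 72.8% were higher without overlap with JM6, 62.3% with PMI and 84.6% with E33, so most probes shared that order. The second Egr1 probe was at -2.90 and -2.48 in Sham and between -7.91 and -4.78 in Naive and TBI rats, where it was well above background in 1 of 3 rats of each group. In the drug-treated rats it ran from -3.47 to 1.38, with TBI+JM6 rat 3 highest and TBI+PMI rat 1 next.

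Egr2, a related zinc finger factor, was well above background only in TBI+PMI rat 1, at -1.26, and TBI+JM6 rat 3, at -0.29. In the other 14 rats its measured level lay between -8.38 and -6.18. The level in these 2 rats was at least 24.7-fold and at least 56.4-fold above that of their group mates, taking as the lower side the faintest signal that was well above background on each array or the probe's own, whichever was higher.

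Egr3 is a zinc finger factor of the same family and itself activity-dependent. Its brightest probe was at -5.64, -5.89 and -5.76 in Naive, -5.52 and -5.64 in Sham, and -7.13, -4.77 and -6.61 in TBI rats, and at -3.15, -3.78 and -3.56 with PMI, -3.97, -3.80 and -2.38 with JM6, and -2.94 and -3.52 with E33. All 8 drug-treated rats lay above all 8 undrugged rats, as they did for Fosb, Egr2 and the second Fosl2 probe and for 40.5% of all tested probes. For Fosb and Egr2 the margin was small and between signals not well above background. The lowest drug-treated rat was at -6.01 and -7.69 and the highest undrugged rat at -6.06 and -7.75. The brightest Egr3 probe was well above background in all drug-treated and Sham rats, but in only 1 of 3 Naive and 1 of 3 TBI rats. By this probe TBI+PMI rat 1 was 1.44-fold and TBI+JM6 rat 3 2.85-fold above its group mates. The second Egr3 probe was well above background in these 2 rats alone, at -4.97 and -2.99, against -8.33 to -5.41 in the other 14. Its level there was at least 1.84-fold and at least 5.47-fold above that of the group mates, so the pattern of the second probe was like that of Egr2.

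Arc was at 0.82, -0.34 and -0.25 in Naive, 1.02 and 1.36 in Sham, and -0.32, -1.43 and -0.73 in TBI rats. In drug-treated rats it was at 3.05, -0.40 and -0.79 with PMI, -0.35, 0.05 and 4.57 with JM6, and 0.01 and 0.27 with E33. Both Sham rats were above all Naive and TBI rats, and the only higher values were those of TBI+PMI rat 1 and TBI+JM6 rat 3, at 12.5-fold and 26.4-fold above their group mates. In the order of medians Sham stood first and did not overlap TBI+E33, the next group, and all later neighbours overlapped.

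Nr4a1 was at -0.22, -0.11 and -0.45 in Naive, -0.39 and -0.40 in Sham, and -1.0, -1.98 and -1.74 in TBI rats. With PMI it was at 2.43, -0.89 and -1.40, with JM6 at -1.21, -1.11 and 3.44, and with E33 at -1.03 and -0.63. Apart from TBI+PMI rat 1 and TBI+JM6 rat 3, which were 11.9-fold and 24.2-fold above their group mates, every injured rat, drug-treated or not, lay below all 5 uninjured rats. This order sets aside 2 rats chosen after their values were seen, and it spans both scanning sessions. The share of all probes with the same order is not given here, so the order is a description only.

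Npas4, which is induced selectively by calcium entry in neurons, had the widest range. It was well above background in both Sham rats, at -6.10 and -6.13, and not in any Naive rat (-8.16 to -6.87) or TBI rat (-8.25 to -7.62). It reached -2.90 in TBI+PMI rat 1, with -6.92 and -7.59 in the group mates, and 1.62 in TBI+JM6 rat 3, with -5.55 and -6.91. The TBI+E33 rats were at -6.63 and -5.13. TBI+PMI rat 1 was at least 7.91-fold above its group mates, neither of which was above background. Of the group mates of TBI+JM6 rat 3 the one at -5.55 was above background and the one at -6.91 was not, so the gap to their mean, 7.85 log2 units, rests in part on a dim signal.

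**Figure D2:**
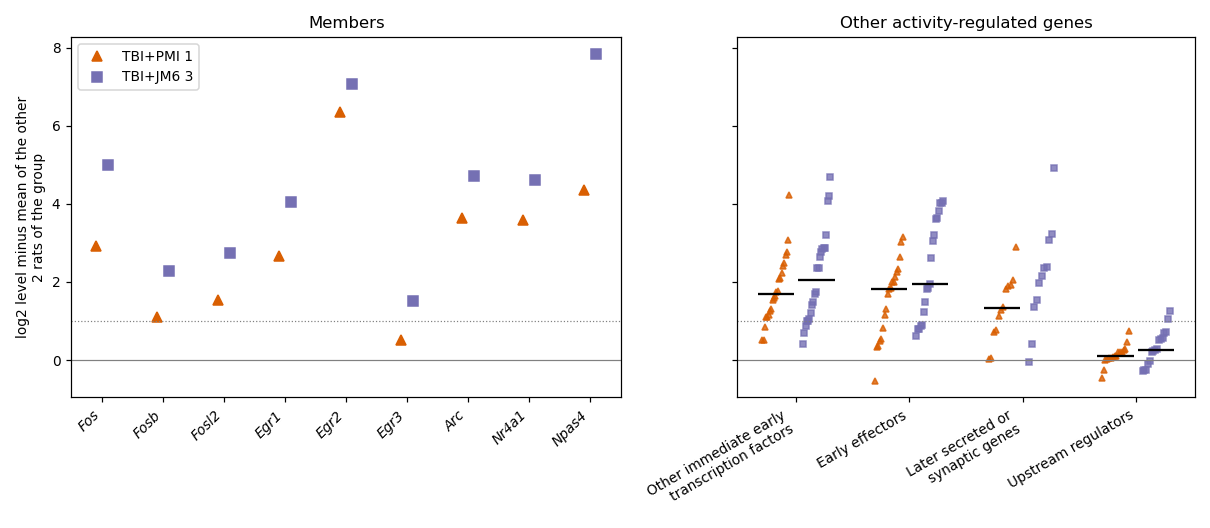
Log2 level of TBI+PMI rat 1 (triangles) and TBI+JM6 rat 3 (squares) minus the mean of the other 2 rats of its group (y axis), for the 9 immediate early genes on the left and for 4 lists of other activity-regulated genes on the right, where each point is 1 gene and bars are medians. The gaps of Egr2 and Npas4 in both rats, and of Fosb in TBI+PMI rat 1, are measured against means that hold dim signals. Arc reaches 4.72 in TBI+JM6 rat 3, and the upstream regulators stay between -0.46 and 1.25.

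The spread between rats of one group was therefore large for these genes. The residual SD from the 6 group means was 2.39 for Npas4, the 12th largest of 22827 probes, 1.59 for Arc, 1.53 for Nr4a1 and for Fos, 1.30 for Egr1, 1.14 for Fosl2, 0.88 for Fosb and 0.71 for Egr3, against a median of 0.32 over all tested probes. Between 88.2% (Egr3) and 99.9% (Npas4) of probes had a smaller SD. Without the 2 rats the SD of Nr4a1 was 0.32, with 51.0% of probes below it, that of Egr1 0.37, of Fos 0.38 and of Arc 0.46, while Fosl2 stayed at 0.90, Npas4 at 0.67, Fosb at 0.66 and Egr3 at 0.64. Each of the last 4 genes was not well above background in at least 1 of the undrugged rats.

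**Figure D3:**
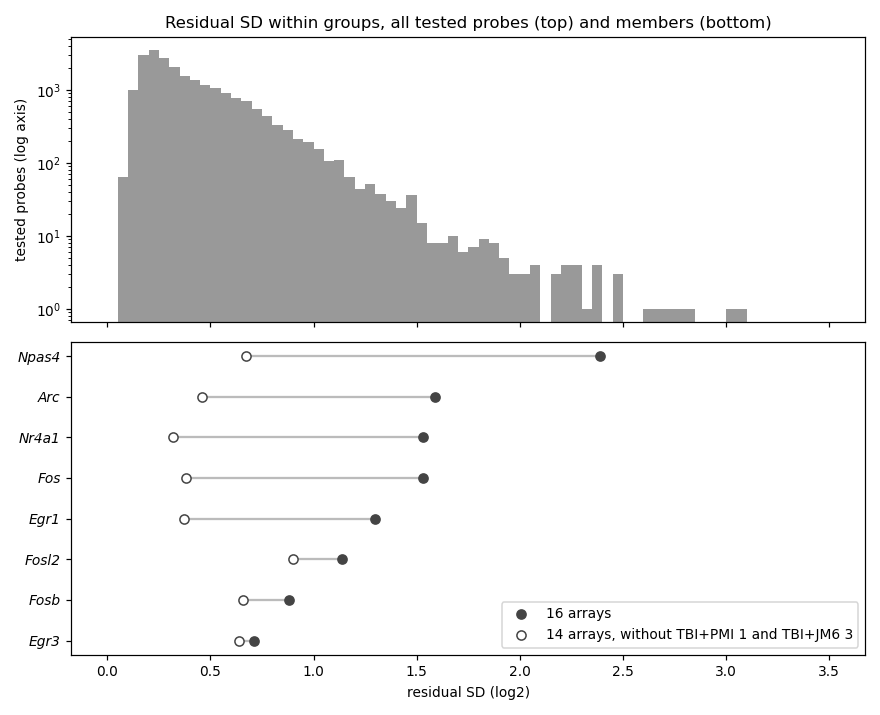
Residual SD within groups on the log2 scale (x axis): histogram of the tested probes on a log count axis (top) and the 8 tested immediate early genes (bottom), with all 16 arrays (filled) and without TBI+PMI rat 1 and TBI+JM6 rat 3 (open). Npas4 moves from 2.39 to 0.67 and Nr4a1 from 1.53 to 0.32.

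The 2 rats lay on different slides of one session. TBI+JM6 rat 3 had the most probes above background (24984) and TBI+PMI rat 1 had 22794, within the range of its session. Choroid plexus markers did not move with them together: their summed level was 150 in TBI+PMI rat 1, 38.2 times the mean of its group mates (0.274 and 7.57), and 0.395 in TBI+JM6 rat 3, 0.341 times the mean. Neuronal markers were 1.07 and 1.36 times the mean of the group mates in TBI+PMI rat 1 and TBI+JM6 rat 3, endothelial markers 1.49 and 0.892 times, blood leukocyte markers 0.710 and 0.991 times and red blood cell markers 1.83 and 0.956 times. In the red blood cell sum the gene Hba-a2 was entered under 2 names of the list. S100a8 had no value in TBI+JM6 rat 2, so the leukocyte ratio of TBI+JM6 rat 3 compares unlike sums. Dentate granule cell markers were 0.620 and 1.18 times the mean. The part of these differences in the result was not tested.

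Other genes of the same response were also high in these rats. Of 22 other immediate early transcription factors, 15 were more than 1 log2 unit above both group mates in TBI+PMI rat 1 and 15 in TBI+JM6 rat 3. The 3 with the largest gap were the same in both: Egr4, the remaining member of the Egr family (4.23 and 4.68), the stress-induced Atf3 (3.07 and 4.20) and the antiproliferative Btg2 (2.78 and 4.07). Of 19 early effectors, 12 and 13 were that far above. Among them the prostaglandin-producing enzyme Ptgs2 was 2.0 and 4.08 above its group mates, and the MAP kinase phosphatase Dusp1 3.02 and 3.20. Of the later secreted or synaptic genes, 7 of 12 and 9 of 11 with a value were, with Inhba, a subunit of activin, at 2.89 and 4.93 and the neurotrophin Bdnf at 2.04 and 3.22. Of 16 upstream regulators, such as Creb1 and Srf, 0 and 1 were. Over all tested probes the share was 2.81% in TBI+PMI rat 1 and 4.5% in TBI+JM6 rat 3. The upstream regulators were thus near the share of all probes.

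The genes outside the group whose deviations from the group means were most like the mean deviation of its 8 tested genes, each divided by its residual SD, were Gadd45b (Pearson r = 0.972), Rnf39 (0.966), Dclk1 (0.958), Tiparp (0.957), Inhba (0.950), Ccl20 (0.948), Csrnp1 and Gadd45g (0.947 each), Pmepa1 (0.943) and Jund (0.942), over 16 arrays. Of 21901 tested probes with a value on every array, 72 had r above 0.9. Without the 2 rats the r of these 10 genes ran from -0.07 for Inhba to 0.75 for Rnf39. Since the 2 rats form a cluster of their own, pairs of members were correlated over the other 14 rats: 21 of 28 pairs had a positive r, with a median of 0.20 (Spearman's rho 0.23) and a range from -0.75 to 0.75. No pair had an adjusted p under 0.05 by permutation within groups, over 28 pairs. The smallest unadjusted p was 0.0243.

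The comparison of TBI with Sham asks what the injury changed beyond anesthesia and surgery. None of the 8 tested genes passed the test (limma over 16 arrays, Benjamini-Hochberg adjusted p under 0.05), where 9.41% of all tested probes did, and none had an unadjusted p under 0.05 by its brightest probe. Fos was 2.27-fold higher in TBI than in Sham (log2 difference 1.18 ± 1.24 SE, adjusted p = 0.583), and its groups did not overlap (17.2% of probes were higher in TBI without overlap). Arc was 4.05-fold lower (-2.02 ± 1.29, adjusted p = 0.35), Egr1 2.39-fold lower (-1.25 ± 1.05, adjusted p = 0.484) and Nr4a1 2.26-fold lower (-1.18 ± 1.24, adjusted p = 0.584), and with Npas4 these were 4 of 8 genes that were lower in every TBI rat than in every Sham rat, against 24.3% of probes. Only the Sham rats brought Npas4 into the tests, so the filter favoured its place in this count, and the count is no support. The second Egr1 probe was at -3.95 ± 1.28 (adjusted p = 0.0707). Neuronal markers differed the same way, with summed levels of 16.8 to 24.5 in TBI against 30.4 to 33.1 in Sham, as did dentate granule cell markers, at 0.555 to 1.08 against 2.4 to 2.55 (1.77 to 2.38 in Naive), and their part was not tested. The neuronal Gad1 and the dentate granule cell marker Prox1 did not follow their sums and overlapped between TBI and Sham.

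These standard errors come from one estimate of spread over all groups, which the 2 rats enlarge. Without them, in a fit chosen after seeing the data, Arc (adjusted p = 0.0184), Nr4a1 (0.0332) and Egr1 (0.0400) fell in TBI compared with Sham, 3 of 8 genes against 8.13% of all probes, and Fos was at an adjusted p of 0.0520. With the 8 Naive, Sham and TBI arrays alone no gene passed, and 0.772% of all probes did: the adjusted p was 0.0769 for Arc, 0.0963 for Nr4a1, 0.109 for Fos and 0.125 for Egr1. Both Sham rats were on one slide and all TBI rats on the other. Only the Naive group was on both slides, with Naive rat 3 alone on that of the TBI rats. A slide term therefore rests on the Naive rats, and the blocked values cannot separate slide from injury well. With slide as a block within that session the difference was -1.53 ± 0.75 for Arc, -0.89 ± 0.52 for Nr4a1, -1.65 ± 0.65 for Egr1 and 1.14 ± 0.58 for Fos (adjusted p from 0.759 to 0.815).

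Against Naive rats, again none of 8 genes passed in TBI, with 4.71% of all probes called and none of the genes at an unadjusted p under 0.05. Fos was 1.79-fold higher without overlap (0.84 ± 1.11, adjusted p = 0.740; 12.5% of probes) and Nr4a1 2.49-fold lower without overlap (-1.31 ± 1.11, adjusted p = 0.556; 10.4% of probes). Without the 2 rats Nr4a1 fell (adjusted p = 0.0233), 1 of 8 genes against 4.13% of probes, and Fos was at 0.137. With the 8 arrays of that session alone none of 8 passed (0.193% of probes), and with slide as a block Nr4a1 was at -1.12 ± 0.40 (adjusted p = 0.506). The blocked value rests on Naive rat 3, the only Naive rat on the slide of the TBI rats. Sham compared with Naive, which asks about anesthesia and surgery alone, gave no call among the 8 genes (8.08% of all probes; none at an unadjusted p under 0.05). Arc was 2.16-fold higher in Sham (1.11 ± 1.29, adjusted p = 0.680), and Arc and Npas4 were higher in both Sham rats than in every Naive rat, 2 of 8 genes against 25.1% of probes. Npas4 entered the tests through the Sham rats alone, so its place in this count was also favoured by the filter. Summed levels of neuronal markers (30.4 to 33.1 against 23.5 to 26.3) and CA field pyramidal cell markers (8.07 to 8.15 against 4.73 to 5.88) were also higher in Sham than in Naive without overlap, and their part was not tested. Not every marker followed its sum: the neuronal Tubb3, Gad1 and Gad2 and the pyramidal cell marker Spink8 overlapped between Sham and Naive. None of the 8 was lower in both Sham rats than in every Naive rat, against 13.8% of probes. None passed either without the 2 rats (6.87% of probes) or with that session alone (1.43%), by the brightest probe. The second Egr1 probe was higher in Sham than in Naive without the 2 rats (3.17 ± 0.74, adjusted p = 0.0313), against an adjusted p of 0.158 with all arrays.

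The comparison of each drug group with TBI asks what treatment changed after injury. By the 75th percentile scaling, 5 of 8 genes rose with JM6, where 69.9% of all tested probes rose, 2 of 8 with PMI (56.7%) and 1 of 8 with E33 (70.2%), and none fell. The median difference of all tested probes was itself 0.99, 0.79 and 1.08 log2 units, and that of the 8 genes 2.28, 1.80 and 1.56. The share of the 8 genes that rose was below that of all probes in each comparison. Fosb was among the 8 only because all TBI+JM6 rats had it above background, so its call with JM6 was favoured by the filter and the count of 5 is no support. Neuronal markers were at 25.8 to 41.9 in the drug groups against 16.8 to 24.5 in TBI, and astrocyte markers at 30.4 to 52.8 against 25.5 to 25.8, and their part was not tested. These are sums of linear levels, in which bright markers weigh most. In the astrocyte list Gfap had log2 levels of 1.64 to 2.20 in TBI and 3.38 to 4.96 in the drug groups. Aqp4 and Slc1a2 were also higher without overlap, while Slc1a3, Aldh1l1 and Gja1 overlapped. In the neuronal list Snap25, Tubb3, Camk2a and Gad1 overlapped between TBI and the drug groups. The other neuronal markers were higher without overlap.

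With JM6, Npas4 rose by 4.42 ± 1.73 (adjusted p = 0.0367; 3.43 above the median of all probes), at least 5.12-fold since no TBI rat was above background. Fosl2 rose by 2.86 ± 0.83 (adjusted p = 0.00877; 1.86 above the median), Egr3 by 2.79 ± 0.52 (0.000549; 1.79 above) and Egr1 by 2.30 ± 0.94 (0.0436; 1.31 above). In TBI the Egr3 probe was above background in 1 of 3 rats and the Fosl2 probe in 2 of 3. The sizes of the Egr3 and Fosl2 rises thus rest in part on dim signals. Fosb rose at least 2.18-fold (log2 difference 2.11 ± 0.65, adjusted p = 0.0113), a bound of 1.12 log2 units where the median of all probes was 0.99. Fos, Arc and Nr4a1, the genes with the next largest spread after Npas4, did not pass: their differences were 2.02 ± 1.11 (adjusted p = 0.119), 2.25 ± 1.16 (0.0968) and 1.95 ± 1.11 (0.131), or 1.03, 1.26 and 0.95 above the median. TBI+JM6 rat 3 carried much of these means. Without TBI+JM6 rat 3 and TBI+PMI rat 1 the difference of Npas4 was 1.81 ± 0.55 (adjusted p = 0.0165), that of Fosl2 1.95 ± 0.72 (0.0393), that of Fosb 1.36 ± 0.54 (0.0496) and that of Egr1 0.95 ± 0.32 (0.0264), against a median of 0.89 over all probes, with 58.1% of probes called. No TBI rat had Npas4 or Fosb above background, and of the 2 TBI+JM6 rats left only 1 had Npas4 above it. The differences of Npas4 and Fosb there rest in part on dim signals, and no bound was computed without TBI+JM6 rat 3. Without TBI rat 2 alone the difference of Fosl2 was 3.62, and that of Egr3 was 3.48 with JM6, 3.37 with PMI and 3.64 with E33.

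With PMI, Egr3 rose by 2.67 ± 0.52 (adjusted p = 0.00107; 1.88 above the median of all probes) and Fosb at least 1.76-fold (1.81 ± 0.65, adjusted p = 0.0299), a bound of 0.82 log2 units where the median was 0.79. Without the 2 rats Fosb, Egr1 and Egr3 passed with PMI, 3 of 8 genes against 48.2% of probes. No TBI rat had Fosb or Npas4 above background, so calls of these genes without the 2 rats rest in part on dim signals. With E33, Egr3 alone passed, at 2.94 ± 0.59 (adjusted p = 0.000875; 1.87 above the median). The standard error there includes the spread of the 2 rats of the other drug groups. Without them 7 of 8 genes rose with E33, all but Fos, against 70.7% of all probes, among them Arc by 0.97 ± 0.39 (adjusted p = 0.0434) and Nr4a1 by 0.74 ± 0.28 (adjusted p = 0.0354), which was less than the median of all probes, 1.08. The second Egr1 probe rose in all 3 comparisons, by 5.12 ± 1.15 with JM6, 4.45 ± 1.15 with PMI and 4.20 ± 1.28 with E33 (adjusted p = 0.00179, 0.00571 and 0.0113), and was above background in 1 of 3 TBI rats. The brightest Egr3 probe was also above background in 1 of 3 TBI rats. Its rises with PMI and E33 therefore rest in part on dim signals too.

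After quantile normalization, which forces one distribution of signals on all arrays and brings the median difference of all probes to between -0.01 and 0.00, none of the 8 genes passed against TBI with JM6, PMI or E33, where 27.2%, 19.2% and 20.4% of all probes did. Egr3 was then at 1.08 (adjusted p = 0.107), 1.15 (0.104) and 1.05 (0.176) log2 units, and Npas4 with JM6 at 3.35 (0.191). The second Egr1 probe kept its call with JM6, at 3.68 (adjusted p = 0.0402), and was at 3.15 (0.0835) with PMI and 2.63 (0.181) with E33. With E33 the differences of Fos, Fosb and Nr4a1 turned negative, at -0.17, -0.27 and -0.10. The gaps of the 2 rats within their groups hardly moved: after quantile normalization that of Fos was 4.90 in TBI+JM6 rat 3 and 2.97 in TBI+PMI rat 1, and that of Arc 4.6 and 3.62, against 4.72 and 3.64 before.

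**Figure D4:**
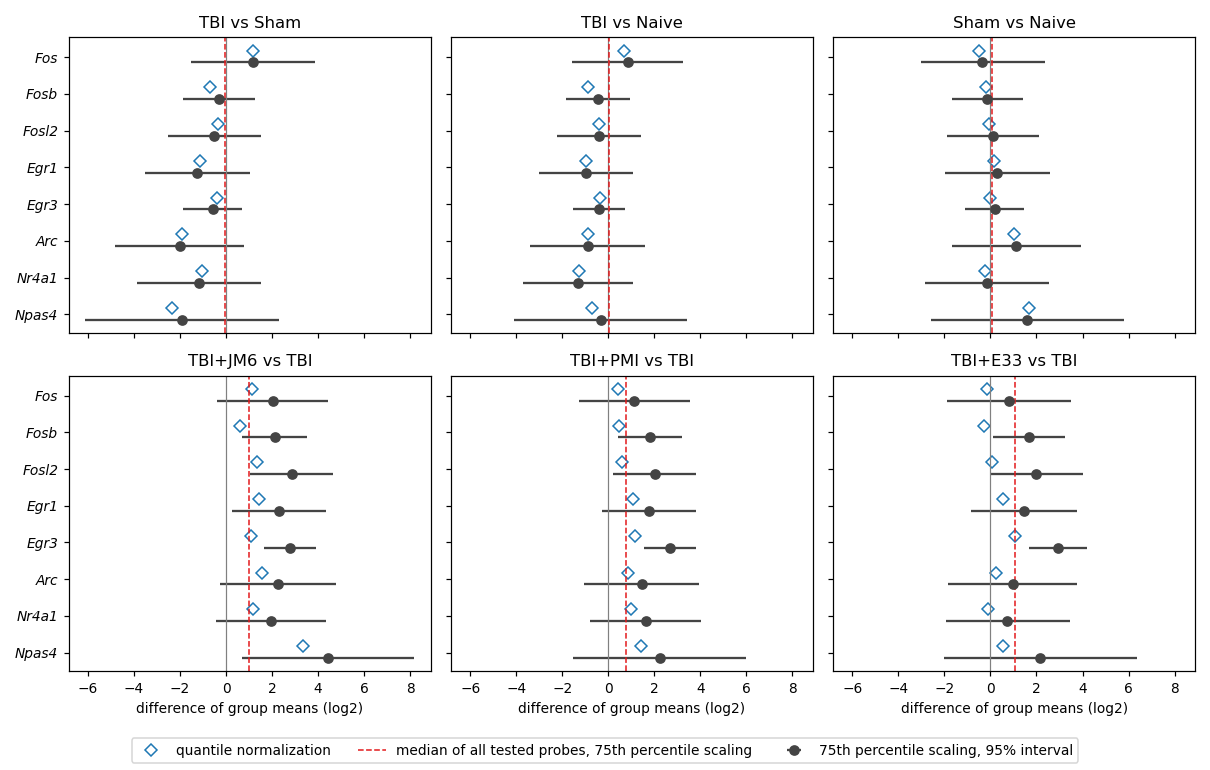
Difference of group means on the log2 scale (x axis) for the 8 tested immediate early genes in 6 comparisons, with 75th percentile scaling and its 95% interval (filled) and after quantile normalization (open). The dashed line, the median of all tested probes with 75th percentile scaling, lies near 0 in the upper row and at 0.99, 0.79 and 1.08 in the lower row.

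The drug groups shared a session and could be compared directly. None of the 8 genes differed between JM6 and PMI, JM6 and E33, or PMI and E33 (0.0131%, 0.0175% and 0.11% of all probes called; none of the genes at an unadjusted p under 0.05). Without the 2 rats none of the 8 was called either (0.0351%, 0.127% and 0.232% of probes). The intervals were wide: the 95% interval of the JM6 minus PMI difference was -1.56 to 5.95 for Npas4, -1.70 to 3.31 for Arc and -1.52 to 3.30 for Fos, so large differences in either direction remain possible. The interval was narrower for Egr3, at -1.02 to 1.25 for JM6 minus PMI, -1.42 to 1.11 for JM6 minus E33 and -1.54 to 1.0 for PMI minus E33.

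Of the 71 other activity-regulated genes, 69 were tested. Compared with Sham, 2 of these 69 rose and 1 fell in TBI, where 9.41% of all tested probes were called. Compared with Naive 2 rose, where 4.71% of all tested probes were called. Fosl1 and Maff rose in both comparisons and were the only other immediate early transcription factors called among 22. Fosl1, which encodes the AP-1 subunit Fra-1, was at -4.32, -2.95 and -4.44 in TBI rats and between -8.44 and -7.55 in the 5 uninjured rats, none of which was above background. It was at least 5.32-fold higher than in Sham (adjusted p = 0.0204) and at least 4.41-fold higher than in Naive (adjusted p = 0.0129). Maff, a small Maf factor, was at least 2.37-fold higher than in Sham (adjusted p = 0.0354) and at least 1.97-fold higher than in Naive (adjusted p = 0.00978). No early effector of 19 and no later gene of 12 was called in either comparison, and of 16 upstream regulators only the NMDA receptor subunit Grin1 fell compared with Sham (-1.01 ± 0.28, adjusted p = 0.0404). After quantile normalization Fosl1 kept both calls and Maff that against Naive, while against Sham Maff was at an adjusted p of 0.0574 and Grin1 at 0.0564.

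In Sham compared with Naive, 3 of the 69 genes rose and 1 fell, where 8.08% of all tested probes were called. The upstream regulators Grin1 and Elk1 rose, by 1.19 and 1.09 log2 units (adjusted p = 0.0223 and 0.012), and Mef2c fell by 2.07 (adjusted p = 0.0296). After quantile normalization Mef2c kept its call (-2.07, adjusted p = 0.0431), while Grin1 was at an adjusted p of 0.0515 and Elk1 at 0.0675. Against TBI, 38 of the 69 genes rose with JM6, 24 with PMI and 20 with E33, where 69.9%, 56.7% and 70.2% of all tested probes rose, and none of the 69 fell, with medians of 1.38, 1.07 and 0.89 against 0.99, 0.79 and 1.08 over all probes. After quantile normalization 5, 2 and 1 rose and 2, 2 and 2 fell, where 27.2%, 19.2% and 20.4% of all probes were called in either direction. With 75th percentile scaling the largest rise with PMI was that of Ptgs2, at 3.81 ± 0.94 (adjusted p = 0.00432), and with JM6 that of Arl4d, an ADP-ribosylation factor-like GTPase, at 3.82 ± 0.88 (adjusted p = 0.00213). Without TBI+JM6 rat 3 and TBI+PMI rat 1 these were 3.14 ± 0.48 for Ptgs2 with PMI and 2.48 ± 0.36 for Arl4d with JM6 (adjusted p = 0.000651 and 0.000345). None of the 69 genes differed between drug groups.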

How the data were processed

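Hippocampal RNA of each rat was amplified by the authors (RiboAmp HS or MessageAmp II, the kit of each rat not being stated), labelled with 1 dye and hybridised to Agilent rat 4x44K arrays, which were read with Agilent Feature Extraction. The deposited scanner files hold background-subtracted, processed intensity values per spot. A deposited matrix of the series holds the authors' normalized values per probe as a ratio on a linear scale, and was used as an alternative. Flagged spots were left out, spots of a probe were averaged, values were scaled to the 75th percentile among detected probes of the same array (well above background on at least 0.5 of their spots), and log2 was taken. One group-means model was fitted to 16 arrays with limma 3.58.1 in R 4.3.3 (10 residual degrees of freedom), with p-values adjusted by Benjamini-Hochberg within each of 9 comparisons and calls made under 0.05. The number of arrays limits the precision. Rats are taken as separate animals from the labels.

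All members were described with every probe, the brightest standing for the gene. From the wider lists up to 3 of the largest called rises and falls were eligible to be named, and the 10 genes most like the members. Genes named for their gap in single rats were chosen after their values were seen. Members, lists and tests were chosen with earlier results of these data known. The fit was tested on simulated data. Figures were drawn with matplotlib. Replicate numbers did not pair the rats: same-numbered rats had correlations of deviations from -0.19 to 0.18 (median 0.02). Alternatives were a normexp background correction (offset 50), quantile normalization, the percentile over all probes, the deposited matrix, other filters, the methods' t-test (p under 0.05 and over 1.2-fold), limma on the compared groups, slide or replicate blocks, the mean of a gene's probes, and each rat left out. The fits without TBI+PMI rat 1 and TBI+JM6 rat 3, and with the Naive, Sham and TBI arrays alone, were added after seeing the data. One called gene of the wider lists is not reported here.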

Additional observations from a re-analysis of the deposited data

How the results depend on the processing

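Counts below are of the 8 immediate early genes ("members") and of the 69 other activity-regulated genes called in a comparison, in the order JM6, PMI and E33 against TBI unless another is named. The reported counts were 5, 2 and 1 members and 38, 24 and 20 other genes, with 3 other genes for TBI against Sham, 2 for TBI against Naive and 4 for Sham against Naive. Normexp correction gave 0, 0 and 0 members and 8, 3 and 3 other genes, and 0, 0 and 0 other genes in the comparisons without drug. Quantile normalization gave 0, 0 and 0 members and 7, 4 and 3 other genes, with 1 for Sham against Naive, and the deposited matrix 0, 0 and 0, then 7, 4 and 3, with 2. The percentile over all probes gave 1 member each with JM6 and PMI and 15, 10 and 11 other genes. Requiring all 16 arrays above background gave 1, 0 and 0 members and 1 other gene for TBI against Naive, and no filter gave 1 other gene for TBI against Sham. The former left out Fosb, Fosl2, Egr3 and Npas4, which were dim in some rats. The methods' t-test with unadjusted p called 3 members and 6 other genes for TBI against Sham, 2 and 14 for TBI against Naive, 13 other genes for Sham against Naive, 1, 1 and 2 members with the drugs, 15 other genes with JM6, 31 with E33, 2 for JM6 against PMI and 1 for PMI against E33. After adjustment it called 0 members with JM6 and PMI, 13 and 14 other genes there, and 0, 0 and 0 without drug. Limma on the compared groups gave 3 members each with JM6 and E33, 25 and 39 other genes there, and 0, 1 and 0 for TBI against Sham, TBI against Naive and Sham against Naive. Slide as a random block gave 3 members with E33 and 5 other genes for TBI against Sham, and slide as a fixed block 0, 0 and 0 other genes without drug. The mean of a gene's probes gave 4 members with PMI and 2 with E33.

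With the replicate number as a block, 1 other gene was called for TBI against Sham. No member's count of calls moved under that block, and the numbers do not pair the rats.

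Without TBI+PMI rat 1 and TBI+JM6 rat 3, a choice made after seeing the data, 3 members and 5 other genes were called for TBI against Sham, 1 and 5 for TBI against Naive, and 7 and 44 with E33. The median residual SD of the members was then 0.55 against 1.41, and the median correlation between members 0.20 against 0.76 over all 16 arrays. The Naive, Sham and TBI arrays alone, also chosen after seeing the data, gave 1 other gene for TBI against Sham and 1 for Sham against Naive. Leaving out each rat in turn gave 2 to 7 members with JM6 (fewest without TBI rat 3, most without TBI+JM6 rat 1), 1 to 4 with PMI (without TBI rat 3 and TBI+JM6 rat 3) and 1 to 3 with E33 (most without TBI rat 2). Other genes ran from 23 to 50 with JM6, 13 to 38 with PMI, 10 to 28 with E33, 0 to 7 for TBI against Sham, 1 to 2 for TBI against Naive and 0 to 5 for Sham against Naive. The median correlation ran from 0.55 without TBI+JM6 rat 3 to 0.85 without TBI rat 2. Over the alternatives for single called members, 160 kept the call, 65 lost it and none changed direction. The causes of these changes were not tested. Signals near background limit Fosb, Egr2, Egr3 and Npas4 in undrugged rats.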
